A study of Mus musculus with 24 samples.

Results

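The response of resting mouse macrophages to rosiglitazone (RSG) was measured in cells that were never given IL-4. RSG is a synthetic agonist of the nuclear receptor PPARγ. The comparison set the 3 arrays labelled as Pparg+/- LysCre control macrophages with RSG against the 3 arrays labelled as the same macrophages without it, 6 of the 24 arrays of the series. Marrow cells of 3 C57Bl/6 mice, numbered 1 to 3, were grown for 10 days in 20 ng/ml M-CSF with 1 µM RSG or with its vehicle, a mixture of DMSO and ethanol, and each mouse gave 1 culture to each group. All mice of the series carried LysCre, a Cre recombinase driven by the lysozyme locus of myeloid cells. The Pparg+/- cells had 1 intact and 1 null allele of Pparg and no floxed allele, and cells with both alleles intact were not analysed here. Values beside these come from the IL-4 cultures of the same mice, given 20 ng/ml IL-4, and from cultures of 3 Pparg fl/- LysCre mice without IL-4, whose single functional Pparg allele was floxed and so open to deletion by Cre.

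PPARγ binds DNA as a heterodimer with the retinoid X receptor (RXR) and, when a ligand such as RSG or an oxidized fatty acid is bound, raises transcription of genes that take up, bind, store and burn fatty acids. In macrophages it is also known for its link to the oxysterol receptor LXR, which controls cholesterol efflux and phospholipid remodelling, and for dampening inflammatory genes. Macrophages of the resting state express it at a lower level than those activated by IL-4.

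Each value is a ratio of the signal of a probe set to a reference of that same probe set, for most probe sets its median over the arrays. A ratio of 0.5 and a ratio of 2 are therefore levels relative to that reference, and levels of different genes cannot be compared. In total 43349 probe sets were tested, 17737 genes were represented by 1 probe set each, and the median ratio of the 6 arrays lay between 0.906 and 0.939. A probe set was called, and is written as having risen or fallen, when its limma p, adjusted by Benjamini-Hochberg over all probe sets tested, was under 0.05 and its change no smaller than 1.5-fold. In RNA of whole cultures, fewer cells of a type and less RNA per cell cannot be told apart. Of 11 macrophage markers, 0 were called. At an unadjusted p under 0.05, 2 (18.2%), Cx3cr1 and Cd14, were lower with RSG, against 3.13% of all genes. Csf1r, the M-CSF receptor, Adgre1, which encodes F4/80, Cd68 and Itgam had ratios between 0.722 and 1.02 on the 6 arrays, while Aif1 was at 4.54 on the vehicle array of mouse 1 and between 1.54 and 2.32 on the others. Since ratios are relative, they do not show how strongly the cells expressed these markers. Lyz2, the lysozyme gene whose locus drives LysCre, was at 19.2 and 19.7 on the vehicle and RSG arrays of mouse 2 and between 0.964 and 1.11 on the other 4 arrays. The vehicle array of mouse 1 stood apart in interferon-stimulated genes, as described below, and the counts of members of gene lists are given with and without it.

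RSG without IL-4 called 5 of 43349 probe sets, 0.0115% of them, of which 4 rose and 1 fell. With the mouse as a block the count was 8, 3 of them among these 5, and without the vehicle array of mouse 1 it was 2, of which Gp5 was 1. When the spread was taken from the 6 arrays alone, or with the methods' t-test, 0 were called. The risen probe sets were those of Lpcat3, Ear3 and 2 that the annotation used here does not pair with a gene. At an unadjusted p under 0.05, 2285 probe sets (5.27%) passed.

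Gp5 encodes glycoprotein V, a subunit of the von Willebrand factor receptor of platelets. Its ratio was 0.685, 1.15 and 0.888 on the vehicle arrays of mice 1, 2 and 3 and 0.143, 0.223 and 0.173 on their RSG arrays. All 3 RSG arrays were thus below every vehicle array, and the other 21 arrays of the series, every condition and genotype included, lay between 0.685 and 1.48. Gp5 fell by 2.33 on the log2 scale (SE 0.24, 5.02-fold, limma adjusted p = 0.000529, n = 3 mice). Gp5 stayed called when any 1 of the 6 arrays or any 1 of the 3 mice was left out, with log2 changes between -2.51 and -2.14. It was not called with the spread of the 6 arrays alone (adjusted p = 0.37), by the methods' t-test (adjusted p = 0.40) or with the 12 Pparg+/- arrays only (adjusted p = 0.084). A single probe set represented it. Of 9 other platelet and megakaryocyte genes, a list chosen after the values of Gp5 were seen, 0 were called. Pf4, platelet factor 4, was the 1 lower at an unadjusted p under 0.05, at 1.38 ± 0.15 with vehicle and 1.01 ± 0.0721 with RSG (SD, n = 3), with no overlap. The list's median log2 change was 0.15, with 5 of the 9 above 0 and 4 below. Their summed ratio was 6.29 to 9.35 on the vehicle arrays and 6.14 to 9.49 on the RSG arrays. Itgb3, the integrin β3 gene, was not in this list and is counted among the fusion and osteoclast genes. Its log2 difference was -0.69 (SE 0.23, limma adjusted p = 0.715), and its other probe set gave -2.68 (SE 0.61), neither called.

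Lpcat3 encodes the acyltransferase that loads polyunsaturated fatty acids onto membrane phospholipids, and it is a textbook LXR target. Its ratio was 0.682, 0.609 and 0.746 with vehicle and 1.24, 1.15 and 1.23 with RSG, so the groups did not overlap and each mouse's RSG array was the higher one. Lpcat3 rose 1.78-fold (log2 0.83, SE 0.12, limma adjusted p = 0.0247, n = 3). With 1 array left out it was called only when that array was the vehicle array of mouse 3, while its log2 change stayed between 0.76 and 0.91 over all alternatives. With IL-4 the same contrast gave 0.75 (SE 0.12, adjusted p = 0.0121), and in Pparg fl/- cells without IL-4 it gave 0.18 (SE 0.12, adjusted p = 1.00). The difference between genotypes was itself not called (adjusted p = 0.642).

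Ear3 belongs to the eosinophil-associated ribonucleases, a family of near-identical secreted enzymes whose probe sets can share targets, so the signal cannot be assigned to 1 member with certainty. Its ratio was 0.0188, 0.0312 and 0.0307 with vehicle and 0.507, 0.531 and 0.465 with RSG. Every RSG array was more than 10 times higher than any vehicle array. Ear3 rose 19.1-fold (log2 4.25, SE 0.67, limma adjusted p = 0.0447, n = 3). The 2 unnamed probe sets rose 23.5-fold and 21.9-fold (adjusted p = 0.0154 and 0.0247). On the arrays with IL-4, Ear3 was at 2.46 to 5.64 with vehicle and at 7.15 to 10.2 with RSG, so its ratios with RSG alone were below those of every IL-4 array. In Pparg fl/- cells without IL-4 it was at 0.0103, 0.01 and 0.01 on the vehicle arrays, where 0.01 is the floor set on ratios, and at 0.25, 0.0614 and 0.0437 on the RSG arrays. These 3 probe sets were no longer called with any 1 array left out, or with ratios floored at 0.1, which leaves their log2 changes at 2.32 to 2.52. Of 5 eosinophil markers 0 were called, and their summed ratio was 7.12 to 9.22 with vehicle and 6.64 to 8.62 with RSG.

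**Figure D1:**
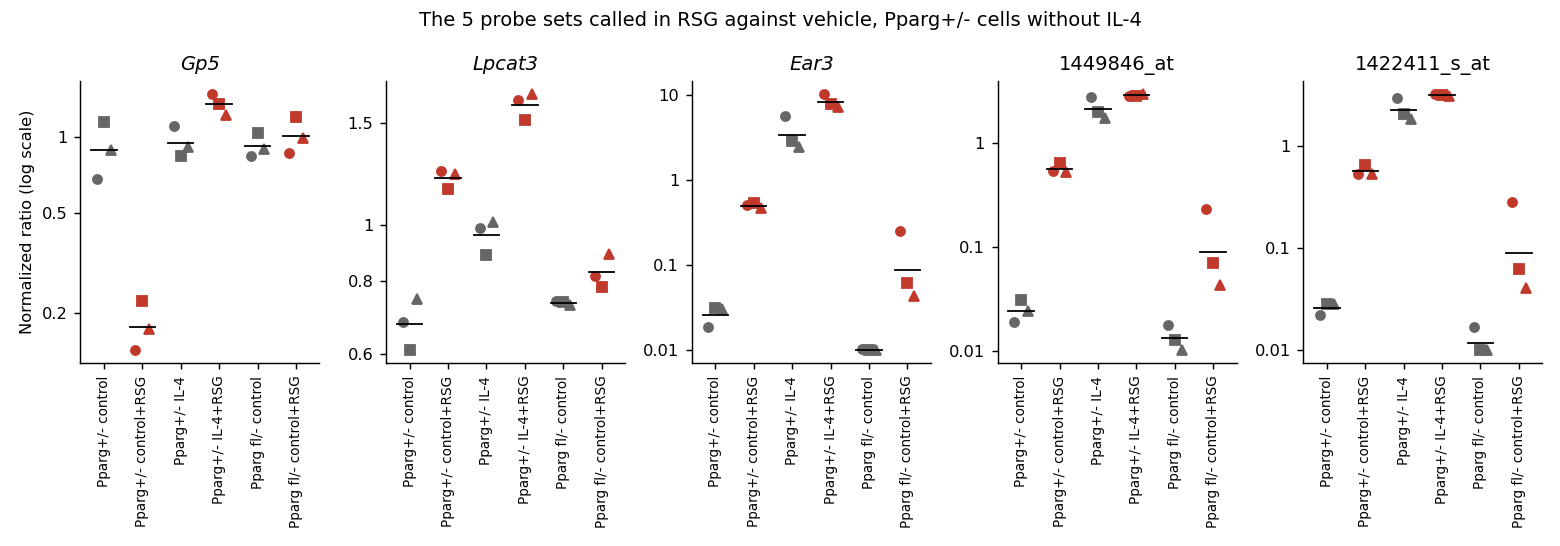
Normalized ratio (log scale) of the 5 called probe sets on each array of 6 groups, grey for vehicle and red for RSG, with circles for mice 1 and 4, squares for mice 2 and 5, triangles for mice 3 and 6 and black lines for the mean of log2 ratios. Gp5 is at 0.143 to 0.223 on the 3 RSG arrays without IL-4 in Pparg+/- cells and at 0.685 or above in all others shown, while Ear3 and the unnamed probe sets are highest with IL-4.

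Genes of lipid metabolism were mostly higher with RSG by small amounts that were not called. Across 7 lists that together held 143 measured genes, 25 of them in more than 1 list, Lpcat3 was the 1 called gene. At an unadjusted p under 0.05, 35 of the 143 (24.5%) were higher with RSG, against 2.50% of all 17737 genes, and 1 was lower, against 3.13%. Of these 35, 20 differed by less than 1.5-fold. In all 3 mice 76 of the 143 (53.1%) were higher on the RSG array, against 15.5% of all genes, and 14 were lower in all 3, against 16.8%. Their median log2 change was 0.18, beside -0.01 for all genes. Without the vehicle array of mouse 1, 29 of the 143 were higher at an unadjusted p under 0.05, against 2.47% of all genes.

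Of 34 measured PPAR target genes, 13 (38.2%) had an unadjusted p under 0.05 and a higher ratio with RSG and 0 a lower one, 19 were higher in all 3 mice, and the median log2 change was 0.31. The count was 9 without the vehicle array of mouse 1. For Angptl4, a secreted inhibitor of lipoprotein lipase, the ratio was 0.884, 0.691 and 0.696 with vehicle and 4.03, 3.21 and 3.49 with RSG. The groups were far apart, 0.757 ± 0.11 against 3.58 ± 0.418 (SD, n = 3), with a log2 difference of 2.24 (SE 0.49), but the difference missed the threshold in limma (unadjusted p = 0.000213, adjusted p = 0.257). Its other probe set differed by 1.05 (SE 0.91).

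Gpd1, the glycerol-3-phosphate dehydrogenase that supplies the backbone of triglycerides, was at 0.89, 0.33 and 0.222 with vehicle and 1.29, 1.16 and 2.11 with RSG (log2 difference 1.87, SE 0.45, adjusted p = 0.371). It was higher with RSG in every mouse, by least in mouse 1. Cd36, the scavenger receptor that imports fatty acids and oxidized LDL, was at 0.743, 0.757 and 0.719 with vehicle and 0.92, 0.957 and 0.948 with RSG. That is a small and even difference of 0.35 (SE 0.10, adjusted p = 0.544), and the other 2 Cd36 probe sets gave 0.27 and 0.47. Plin2, the coat protein of lipid droplets, differed by 0.31 (SE 0.13), and the fatty acid-binding protein gene Fabp4 also by 0.31 (SE 0.23), each with no overlap between groups and neither called. The other 3 probe sets of Fabp4 differed by 0.86 (SE 0.32), 0.83 (SE 0.24) and 0.04 (SE 0.25), so its size of difference depended on the probe set. Pdk4, a kinase that keeps pyruvate out of the mitochondria, spread from 0.527 to 2.79 on the vehicle arrays alone, and its groups overlapped.

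Of 30 genes of mitochondrial and peroxisomal fatty acid oxidation, 9 were higher at an unadjusted p under 0.05 and 20 were higher in all 3 mice, with a median log2 change of 0.17. The count was 10 without the vehicle array of mouse 1. Hadhb, the β-subunit of the mitochondrial trifunctional protein, was at 0.769 ± 0.0779 with vehicle and 1.12 ± 0.0627 with RSG (SD, n = 3), a log2 difference of 0.55 (SE 0.12, adjusted p = 0.257), and its other 2 probe sets gave 0.13 and 0.16. Abcd2, a peroxisomal importer of very long-chain fatty acids, was at 0.405 ± 0.0539 and 0.74 ± 0.0682, a difference of 0.87 (SE 0.23, adjusted p = 0.493). Ech1, an auxiliary enzyme for unsaturated fatty acids, differed by 0.37 (SE 0.10) and Hadha, the partner subunit of Hadhb, by 0.31 (SE 0.12). None of these 4 overlapped between groups. Their picking favours this, since the first 3 had the smallest p of the list and Hadha was chosen after its values were seen. The share of all genes without overlap is not given here, so this describes only these 4 genes and not the list.

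Of 18 genes of fatty acid synthesis, desaturation and elongation, 4 were higher at an unadjusted p under 0.05, and 3 without the vehicle array of mouse 1. The 4 were the stearoyl-CoA desaturases Scd1 and Scd2, which introduce the double bond of oleate, Acaca, the acetyl-CoA carboxylase that commits carbon to synthesis, and the elongase Elovl5. Scd1 was at 0.509, 0.219 and 0.298 with vehicle and 0.944, 1.00 and 0.963 with RSG, a log2 difference of 1.59 (SE 0.34, adjusted p = 0.257). The RSG arrays were nearly equal, and the spread lay among the vehicle arrays. Scd2 differed by 1.02 (SE 0.28, adjusted p = 0.544) and Acaca by 0.50 (SE 0.15). Other probe sets did not all have that direction. For Scd2 they gave 1.05 and -0.09 (SE 0.66), for Acaca -0.51 (SE 0.28) and for Scd1 0.81. With IL-4 the probe sets that stand for the 3 genes gave 0.63, -0.17 and -0.24, and in Pparg fl/- cells -0.26, 0.05 and -0.11. The differences of these responses were not called (adjusted p from 0.642 to 1.00).

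Triglyceride and lipid droplet genes had 6 of 31 members higher at an unadjusted p under 0.05 and a median log2 change of 0.18. It was 3 of 31 without the vehicle array of mouse 1. G0s2, an inhibitor of the lipase ATGL, was at 0.31 ± 0.043 with vehicle and 0.769 ± 0.168 with RSG (SD, n = 3). Fatty acid uptake, binding and activation had 3 of 20 higher and 1 lower, and 3 higher and 0 lower without that array. The lower one was Fabp3, the heart-type binding protein, at 1.46 ± 0.143 with vehicle and 1.19 ± 0.103 with RSG, and the fatty acid transporter Slc27a1 was at 0.873 ± 0.0482 and 1.14 ± 0.109.

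Besides Lpcat3, the 16 LXR target and cholesterol efflux genes had 2 higher at an unadjusted p under 0.05. Nr1h3, which encodes LXRα, was at 0.755, 0.643 and 1.02 with vehicle and 1.19, 1.16 and 1.24 with RSG (log2 difference 0.59, SE 0.21, adjusted p = 0.784). Abcg1, an exporter of cholesterol to HDL, was at 0.426 ± 0.0807 and 0.641 ± 0.0303 (SD, n = 3, adjusted p = 0.857). Abca1, the exporter to lipid-poor apolipoprotein A-I, was at 0.597 ± 0.151 and 0.601 ± 0.122. The list's median was 0.21, and without the vehicle array of mouse 1 its median was 0.38 and its count, with Lpcat3, 4 in place of 3.

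Cholesterol biosynthesis, a pathway controlled by SREBP2, had 7 of 20 genes (35.0%) higher at an unadjusted p under 0.05, with a median log2 change of 0.30. In all 3 mice 14 were higher and 0 lower, against 15.5% and 16.8% of all genes. Mvd, which makes isopentenyl diphosphate, was at 0.912 ± 0.0776 with vehicle and 1.40 ± 0.232 with RSG (SD, n = 3, log2 difference 0.61, SE 0.20, adjusted p = 0.696). Hsd17b7 differed by 0.58 (SE 0.21) and Cyp51, the lanosterol demethylase, by 0.50 (SE 0.20). In Pparg fl/- cells the 3 differences were -0.14, -0.11 and -0.05, and the list's median was -0.01. The count without the vehicle array of mouse 1 was 4 of 20.

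**Figure D2:**
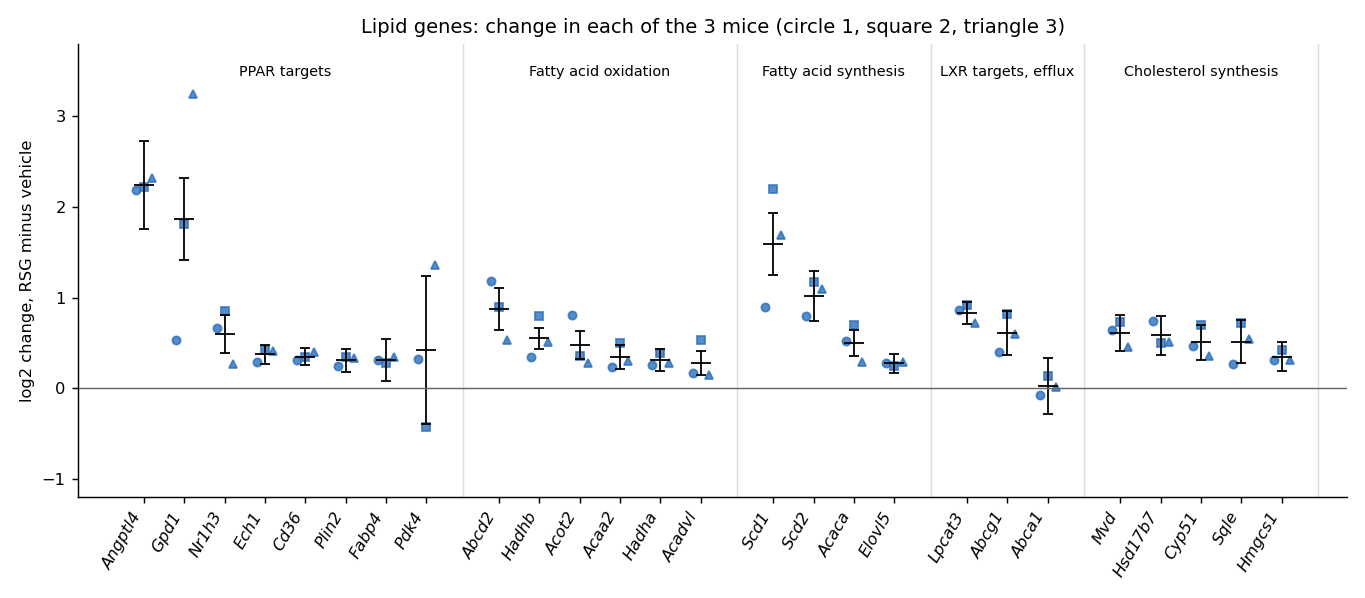
log2 change from vehicle to RSG of 26 lipid genes in each of the 3 Pparg+/- mice (blue symbols), with the limma estimate and its SE in black. Changes lie above 0 in all 3 mice for all genes shown except Pdk4 and Abca1, are near 2.24 for Angptl4 in each mouse, and are mostly under 1 elsewhere. The 26 genes are a selection, many of them picked for a small p or after their values were seen. Of all 143 lipid genes, 76 (53.1%) were higher in all 3 mice and 14 were lower in all 3.

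The receptors themselves gave no call. Pparg was at 0.579, 0.51 and 0.558 with vehicle and 0.362, 0.547 and 0.46 with RSG, overlapping groups with a log2 difference of -0.29 (SE 0.26, adjusted p = 1.00). Of 23 genes for PPAR, RXR and their cofactors, 1 was higher, Nr1h3, and 3 were lower at an unadjusted p under 0.05, Ppargc1a, Vdr and Nr4a2. These are 4.35% and 13.0% of the list, against 2.50% and 3.13% of all genes. Without the vehicle array of mouse 1, 1 was higher and 1 lower. Ppargc1a, the coactivator PGC-1α, was at 0.783 ± 0.315 and 0.314 ± 0.218 (adjusted p = 0.784), and Vdr, the vitamin D receptor, was at 0.875 ± 0.201 and 0.466 ± 0.0781 (SD, n = 3, adjusted p = 0.811). Other probe sets of both genes had either direction, between -1.81 and 1.18 for Ppargc1a and 0.60 (SE 0.51) for Vdr, so no direction is drawn for these genes.

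Of 31 measured alternative activation markers, 0 were called, and the median log2 change was -0.04. At an unadjusted p under 0.05, 2 (6.45%) were higher, against 2.50% of all genes. Without the vehicle array of mouse 1 the count was also 2, against 2.47% of all genes. Retnla and Arg1, which mark IL-4-activated mouse macrophages, were listed at 0.01 on all 6 arrays. Mrc1, the mannose receptor, was at 0.82 ± 0.0844 with vehicle and 0.791 ± 0.0222 with RSG, and the chitinase-like Chil3 at 0.176 ± 0.0204 and 0.177 ± 0.0363 (SD, n = 3). Clec10a, a galactose-binding lectin of the same marker set, was at 0.29, 0.179 and 0.241 with vehicle and 0.489, 0.455 and 0.493 with RSG. It did not overlap between groups, and its log2 difference of 1.04 (SE 0.20) missed the threshold (adjusted p = 0.185).

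Inflammatory genes were lower with RSG in all 3 mice for 19 of 34 measured (55.9%), against 16.8% of all genes. At an unadjusted p under 0.05, 5 were lower and 1 higher, against 3.13% and 2.50% of all genes. None was called, and the median log2 change was -0.26. Without the vehicle array of mouse 1, 4 were lower, against 2.45% of all genes, 1 was higher, and the median was -0.21. Cd40, the costimulatory receptor, was at 1.69, 1.16 and 0.839 with vehicle and 0.516, 0.675 and 0.473 with RSG (log2 difference -1.11, SE 0.22, adjusted p = 0.204). The collagenase gene Mmp13 was at 0.415 ± 0.0158 and 0.24 ± 0.0196, and the monocyte chemokine gene Ccl12 at 4.68 ± 1.41 and 1.79 ± 0.665 (SD, n = 3). Ccl5 was at 22.4 on the vehicle array of mouse 1 and at 1.64 and 1.90 on the other 2. The 1 higher gene at that p was Ptgs2, the inducible cyclooxygenase, at 0.362, 0.143 and 0.65 with vehicle and 0.847, 1.65 and 1.22 with RSG (adjusted p = 0.411).

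Interferon-stimulated genes were high on 1 of the 6 arrays, the vehicle array of mouse 1. The median ratio of 45 such genes was 4.12 there, 0.98 and 1.21 on the vehicle arrays of mice 2 and 3, and 1.06, 1.00 and 1.05 on the RSG arrays. A milder difference lay between the other 2 vehicle arrays, with 37 of the 45 higher in mouse 3 than in mouse 2, by a median of 1.30-fold. A ratio over 2 was found for 35 members on the vehicle array of mouse 1, 2 on that of mouse 2 and 9 on that of mouse 3. The vehicle array of mouse 1 was the highest of the 6 for 43 of the 45 and the highest of all 24 for 41, while 3.15% of all genes were highest there. Relative to the mean of the other 2 vehicle arrays the median excess was 3.18-fold, and 33 of 45 exceeded 2-fold, as did 6.21% of all genes. Iigp1, an immunity-related GTPase, was at 92.0 on it and at 0.733 and 1.28 on the other vehicle arrays. Cxcl10, a chemokine for T cells, was at 39.6 against 1.43 and 2.65, and Gbp2, a guanylate-binding protein, at 8.43 against 0.25 and 0.525. The RSG culture of the same mouse had 0.58, 1.29 and 0.309 for these 3 genes.

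The list's summed ratio was 348 on this array, 45.6 and 64.1 on the other vehicle arrays and 45.6 to 51.6 on the RSG arrays. Outside the list, Acod1, the itaconate-producing enzyme of activated macrophages, was at 126 on it against 0.237 and 0.838, and Ifng, the gene of interferon-γ, at 2.84 against 0.25 and 0.147. The summed ratio of 8 markers of T and NK cells, which make interferon-γ, was 9.94 on this array and 4.41 to 5.95 on the other 5. For 9 dendritic cell markers, of which Bst2 is also in the interferon list, the sum was 11.1 against 5.80 to 7.62. No marker of either list was at the floor on all 6 arrays. The mean log2 ratio of the interferon list was 2.08 on this array and at most 0.594 on arrays outside these 6. For the T and NK markers it was 0.0151 and at most 0.774, and for the dendritic cell markers -0.023 and at most 0.617. Both marker lists thus reached higher levels elsewhere in the series. The part of these cells in the interferon values was not tested.

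With all 6 arrays, 18 of the 45 interferon-stimulated genes (40.0%) had an unadjusted p under 0.05 and were lower with RSG, 0 were called, and the list's median was -0.73. Without the vehicle array of mouse 1, 1 was lower at that p, Iigp1, and the median was -0.14. In mouse 1 alone the median change was -1.89, in mouse 2 it was 0.06 and in mouse 3 it was -0.17. In all 3 mice 16 of the 45 (35.6%) were lower, against 16.8% of all genes. The 11 measured genes of MHC class II presentation, which interferon-γ induces, had 0 with an unadjusted p under 0.05, a median of -0.58 and, without that array, a median of -0.17. All 11 had a log2 change below 0, and 8 (72.7%) were lower in all 3 mice. Their median change was -1.29, -0.04 and -0.37 in mice 1, 2 and 3.

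**Figure D3:**
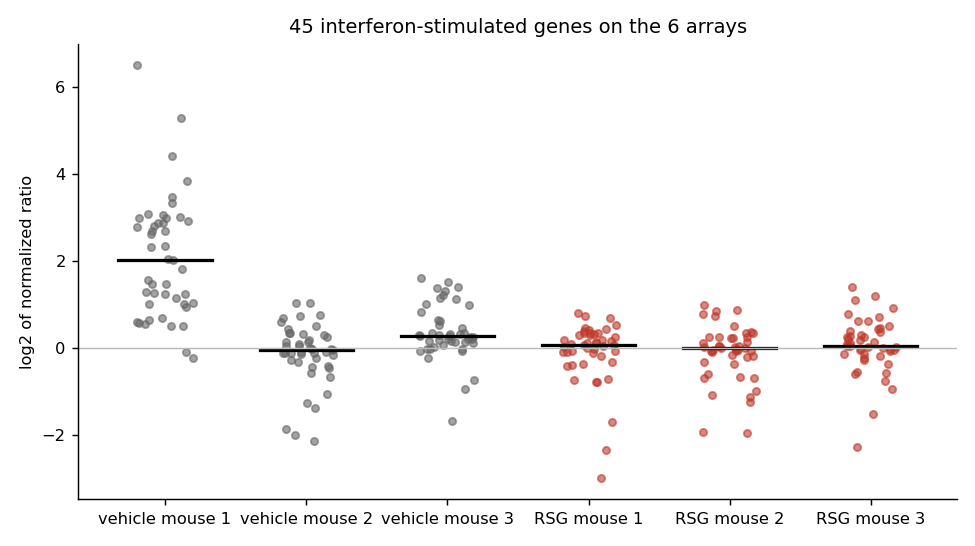
log2 of the normalized ratio of 45 interferon-stimulated genes (points) on each of the 6 arrays, grey for vehicle and red for RSG, with the median as a black line. The points of the vehicle array of mouse 1 have a median ratio of 4.12, and those of the other 5 arrays have medians between 0.98 and 1.21.

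Promoter sequences were read for the interferon-stimulated genes because these moved together on that array. In RefSeq promoter windows of 300 bases (250 before and 50 after the start, GRCm38.p6), matched by symbol for 32 of the 45 genes, 17 (53.1%) held the interferon element, written here as GAAA, any 2 bases, and GAAA on either strand. The share was 3.64% among the 14097 tested genes with a window. The list holds known interferon-stimulated genes, so a high share followed from the list and does not bear on these arrays. Stretches were taken only from interferon genes named here that had a match before the start. The 4 below are 80 bases each, 5′ to 3′ on the strand of the gene, with the matched element in capitals. They are Gbp2 (chr3:142620569-142620648, plus strand), Cxcl10 (chr5:92349058-92349137, minus strand), Gbp3 (chr3:142559964-142560043, plus strand, 2 overlapping matches) and Rsad2 (chr12:26456528-26456607, minus strand), all before the start of the gene.
Gbp2: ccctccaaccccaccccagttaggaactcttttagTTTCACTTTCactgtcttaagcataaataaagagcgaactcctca
Cxcl10: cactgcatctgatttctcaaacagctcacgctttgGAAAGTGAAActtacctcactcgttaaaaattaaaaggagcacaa
Gbp3: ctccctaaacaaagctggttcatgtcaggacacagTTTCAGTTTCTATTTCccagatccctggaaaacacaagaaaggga
Rsad2: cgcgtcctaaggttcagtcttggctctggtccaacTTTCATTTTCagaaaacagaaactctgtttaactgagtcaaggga

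Gbp3, another guanylate-binding protein, was at 7.62 on the vehicle array of mouse 1 and at 0.48 and 0.985 on the other vehicle arrays, and Rsad2, the antiviral protein viperin, at 4.14 against 0.745 and 1.24. For the nuclear receptor half-site AGGTCA on either strand, 8 of 27 PPAR target genes with a window (29.6%) had a match, against 16.3% of tested genes. The share was 28.1% (9 of 32) for interferon-stimulated genes and 9.09% (1 of 11) for LXR targets. A pair of half-sites 1 base apart was in the windows of 0 of these 27 genes and of 0.0426% of tested genes. The windows of Lpcat3 and Gp5 held none of the 3 motifs. A match is a description of letters, and distal elements lie outside these windows.

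The genes that came closest to a call without reaching it were Clec2i, Frk, Crxos, Tmem236, Clec10a and Samd4. Clec2i, a C-type lectin-related ligand of NK cell receptors, was at 2.89, 1.98 and 1.95 with vehicle and 1.06, 0.998 and 0.93 with RSG (log2 difference -1.17, SE 0.20, adjusted p = 0.0781), and it was called with the mouse as a block and after centring or quantile normalization. Frk, a Src-family tyrosine kinase, was at 0.753, 0.445 and 0.534 with vehicle and 2.57, 2.28 and 1.96 with RSG (log2 difference 2.00, SE 0.35, adjusted p = 0.0894). Its other 3 probe sets gave 1.34, 1.17 and 0.31. With IL-4 Frk rose by 2.25 (SE 0.35, adjusted p = 0.0108). In Pparg fl/- cells without IL-4 it was at 0.875, 0.62 and 1.03 with vehicle and at 2.45, 1.01 and 0.954 with RSG, where the high array was that of mouse 4. Samd4, an RNA-binding repressor of translation, was at 1.15, 1.08 and 1.45 with vehicle and 2.89, 2.80 and 2.67 with RSG. On this probe set the 21 other arrays of the series reached 1.60, below all 3 RSG arrays. Its log2 difference was 1.20 (SE 0.23). Other probe sets of Samd4 gave 0.94 (SE 0.26), 0.75 (SE 0.25) and -0.39 (SE 0.80), so the size depended on the probe set. The homeobox gene Crxos was at 1.09 ± 0.151 and 0.221 ± 0.133, and Tmem236 at 1.49 ± 0.219 and 0.183 ± 0.123 (SD, n = 3). A second probe set of each showed no such difference, 0.04 (SE 1.29) for Crxos and 0.15 (SE 0.55) for Tmem236, so these are values of a probe set and not settled for the gene. Samd4 also rose with IL-4, by 1.17 on the log2 scale (SE 0.23, adjusted p = 0.0459). In Pparg fl/- cells without IL-4 Samd4 differed by 0.52 (SE 0.23), which was not called. Clec10a differed by 0.80 (SE 0.20) with IL-4 and by 0.79 (SE 0.20) in Pparg fl/- cells, neither called. With IL-4 the log2 differences of Clec2i, Crxos and Tmem236 were -0.04, 0.15 and 0.18, and in Pparg fl/- cells 0.06, -0.22 and -0.37. The differences of these responses were not called (adjusted p from 0.566 to 0.737).

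NRF2-type antioxidant genes were higher with RSG in all 3 mice for 10 of 17 measured (58.8%), against 15.5% of all genes, with a median log2 change of 0.16 and 0 called. At an unadjusted p under 0.05, 2 were higher and 1 lower, against 2.50% and 3.13% of all genes, and 1 and 1 without the vehicle array of mouse 1. Macrophage fusion and osteoclast genes had 2 lower of 22 with and without that array, immediate early genes 0 of 21 and cell cycle genes 0 of 31. Interferons with their receptors and signalling had 1 lower of 21, and 1 higher and 0 lower without that array. Among macrophage markers Cx3cr1, the fractalkine receptor, was at 3.21 ± 0.259 with vehicle and 1.65 ± 0.25 with RSG, and the LPS coreceptor Cd14 at 1.61 ± 0.0757 and 1.13 ± 0.119 (SD, n = 3), neither called. The count of lower macrophage markers was 1 without the vehicle array of mouse 1.

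Markers of other cell types gave 0 calls, and some sums differed between vehicle and RSG. The summed ratio of 10 mast cell and basophil markers was 9.50, 10.2 and 11.4 on the vehicle arrays and 7.55, 7.10 and 5.89 on the RSG arrays, with no overlap, and the median log2 change was -0.61, or -0.73 without the vehicle array of mouse 1. None of the 10 had an unadjusted p under 0.05 with all arrays, and 1 was lower without that array. Their log2 changes were below 0 for 7 and above 0 for 3. In all 3 mice 2 of the 10 (20.0%) were lower, against 16.8% of all genes. Kit, the stem cell factor receptor of mast cells, was at 2.17, 2.02 and 2.36 with vehicle and 1.07, 1.51 and 0.802 with RSG. Fcer1a, also in the list, had the other direction, at 0.353 ± 0.391 with vehicle and 0.723 ± 0.302 with RSG (SD, n = 3). The 4 erythroid markers had a median of 0.89, with sums of 2.01 to 4.45 with vehicle and 4.13 to 5.05 with RSG, and Epor, the erythropoietin receptor, was the 1 higher at an unadjusted p under 0.05. Sums of 12 neutrophil markers were 25.7 to 36.9 with vehicle and 24.7 to 32.1 with RSG, those of 8 B cell markers 7.15 to 10.3 and 7.81 to 8.99, those of 12 stromal markers 15.9 to 19.9 and 17.4 to 18.0, and those of 4 adipocyte markers 2.28 to 3.97 and 2.08 to 4.97. Adipoq was the 1 adipocyte marker higher at an unadjusted p under 0.05, at 0.484 ± 0.363 with vehicle and 1.89 ± 1.16 with RSG (SD, n = 3). Of the 4 adipocyte markers, 2 had a log2 change above 0 and 2 below, with a median of -0.41. Those below were Cidec (-1.34, SE 1.05) and Retn (-0.84, SE 0.87). The stromal sums depend on the probe set. Those standing for Cxcl12 and Sparc gave log2 differences of -1.77 and -1.49. The others gave 1.78 and 1.14 for Cxcl12 and 0.69 and 0.76 for Sparc. The part of these cell types in the results was not tested.

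Set beside the same contrast in other cells, RSG called 75 probe sets with IL-4 (0.173% of those tested, 38 up and 37 down) and 0 in Pparg fl/- cells without IL-4, where 1843 had an unadjusted p under 0.05 in limma. The methods' t-test called 0 in both. The 75 fell to 3 with only the arrays compared and to between 7 and 67 with arrays or mice left out. A larger count in 1 condition does not show that responses differ, so the differences were tested directly. The response with IL-4 minus that without differed in 1 probe set (0.00231% of those tested), and the response in Pparg fl/- minus Pparg+/- cells in 1 (0.00231%). It was Gp5 both times, and both differences use the same 6 arrays. Neither held with the mouse as a block. The first was lost without the IL-4 and RSG array of mouse 1, without mouse 2 or without mouse 3. The second was lost with the floor of 0.1, with centred arrays, without either array of mouse 3, mouse 5 or mouse 6, without the vehicle array of mouse 2 or of mouse 4, and without mouse 3, mouse 5 or mouse 6 as a whole. Without mouse 4 the second count was 31, Gp5 among them. Its log2 change was 0.51 (SE 0.24) with IL-4 and 0.13 (SE 0.24) in Pparg fl/- cells. Angptl4, which rose by 4.12 with IL-4 (SE 0.49, adjusted p = 0.00412) and differed by 1.45 in Pparg fl/- cells, gave no called difference (adjusted p = 1.00 for each).

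The PPAR target list had 11 of 34 members higher at an unadjusted p under 0.05 with IL-4, where 3.55% of all genes were higher and 4.95% lower, and 5 of 34 in Pparg fl/- cells, where 2.26% were higher and 1.90% lower. Its medians were 0.31 without IL-4, 0.21 with IL-4 and 0.13 in Pparg fl/- cells. For fatty acid oxidation the counts were 9, 13 and 2 of 30 and the medians 0.17, 0.23 and 0.10. For fatty acid synthesis they were 4, 0 and 0 of 18, with medians 0.13, -0.06 and -0.02, and for cholesterol biosynthesis 7, 1 and 0 of 20, with medians 0.30, 0.17 and -0.01. Whether these lists differed between conditions was not tested.

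**Figure D4:**
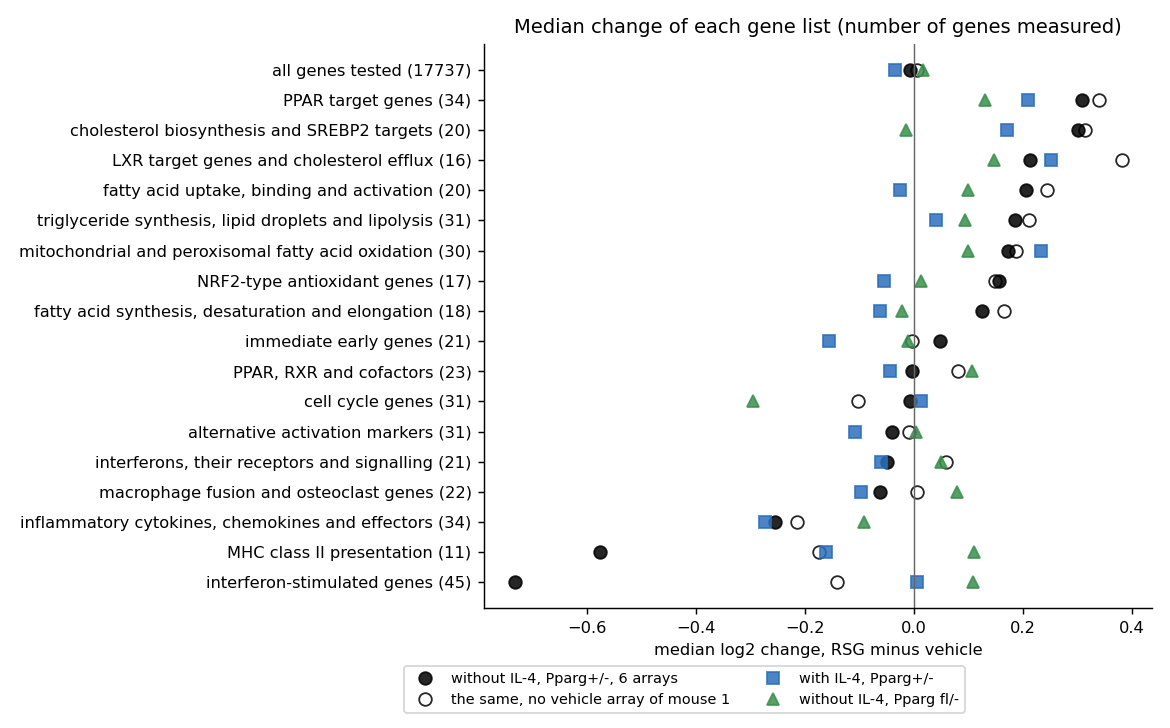
Median log2 change from vehicle to RSG of each gene list (rows, with the number of genes measured) without IL-4 in Pparg+/- cells (filled black), the same without the vehicle array of mouse 1 (open), with IL-4 (blue squares) and in Pparg fl/- cells without IL-4 (green triangles). The 7 lipid lists lie between 0.13 and 0.31 in the filled points, and the interferon-stimulated list moves from -0.73 to -0.14 without that array.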

How the data were processed

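RNA of 24 cultures was hybridized to Affymetrix mouse arrays. The deposited values were ratios that the authors made with GC-RMA in GeneSpring, scaling each array to its median and each probe set to its own. The further scaling to vehicle in their methods is not in the deposited ratios. The submitters' notes name GCOS without a version. For 17.1% of the 45101 probe sets the median ratio was under 0.95, and what they were divided by is not known. The number of arrays limits precision.

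Ratios were floored at 0.01 and log2 transformed. Control probe sets (64) and those that reached the array median on fewer than 3 arrays (1688) were left out, and limma 3.58.1 (R 4.3.3) fitted the remaining 43349 over the 24 arrays, one mean for every group, with a trend of variance on mean. A gene was represented by the probe set with the smallest spread within groups. Symbols were single for 34945 probe sets, several for 932 and absent for 9160. Groups and mice came from the labels. Members, gene lists and tests were chosen with earlier results of these data known. Named genes were those the study names, called genes, of each list up to 4 called members or else the 3 with the smallest p, the 8 interferon genes with the largest excess on the vehicle array of mouse 1, and the 6 nearest misses. Hadha, Elovl5, Abca1, Abcg1, Nr4a2, Ccl5, Ccl12, Acod1, Ifng, Lyz2, Csf1r, Adgre1, Cd68 and Itgam were chosen after their values were seen. Mouse numbers pair the arrays because both cultures came from 1 animal, and deviations of paired arrays from their group means correlated at 0.033, 0.035 and 0.028. The code was tested on simulated data.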

Additional observations from a re-analysis of the deposited data

Results flagged for a closer look

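The RSG response of Gp5 differed between conditions by the test of the difference itself, in both comparisons made, but not with the mouse as a block, under which neither difference was called. The response with IL-4 minus that without IL-4 in Pparg+/- cells was 2.84 on the log2 scale (limma adjusted p = 0.00498), with changes of 0.51 with IL-4 and -2.33 without. The response in Pparg fl/- minus Pparg+/- cells without IL-4 was 2.45 (adjusted p = 0.0398), with changes of 0.13 and -2.33. Both share the low ratios of the same 3 RSG arrays, 0.143 to 0.223, while the other 21 arrays lay between 0.685 and 1.48. Those 3 arrays come from 3 mice, and the gene has 1 probe set on the array, so no second probe set bears on it.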

How the results depend on the processing

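The call count without IL-4 in Pparg+/- cells, 5, was 2 with ratios floored at 0.1, 0 with only the 6 arrays compared, 0 by the methods' t-test, 8 with the mouse as a replicate block and 1 with that pairing and no vehicle array of mouse 1. It was 1 to 4 with arrays or mice left out. With 2 alternatives chosen after seeing the data it was 9 with only the 12 Pparg+/- arrays and 7 without the mean-variance trend, under which 30 probe sets had over 4 times the variance they had without it. Gp5 stayed called in 16 of 19 alternatives, Lpcat3 in 8, Ear3 in 5 and the 2 unnamed probe sets in 6 and 5. With IL-4 the count, 75, was 3 with only the arrays compared, 0 by the t-test, 37 with the 12 arrays and 7 to 67 with arrays or mice left out. In Pparg fl/- cells it was 0 to 3 with arrays or mice left out. The difference between IL-4 states, 1, was 0 with the arrays compared, 2 by the t-test, 3 without the trend, 0 with the block, also without the vehicle array of mouse 1, and 0 to 2 with arrays or mice left out. The difference between genotypes, 1, was 0 with the floor of 0.1, with centring, by the t-test and with the block, also without the vehicle array of mouse 1, and 0 to 31 with arrays or mice left out, the 31 without mouse 4. The causes were not tested. Some genes not called turned sign when arrays or mice were left out. The log2 change of Pdk4 was -0.28 to 0.93, the log2 change of Chil3 -0.16 to 0.14, the log2 change of Mrc1 -0.14 to 0.000715, the log2 change of Irf1 -1.34 to 0.031, the log2 change of Ccnd1 -0.44 to 0.020 and the log2 change of Cxcl9 -3.32 to 0.50. Chil3 was at 0.071 with quantile normalization and Cxcl9 at 0.47 with the block and no vehicle array of mouse 1. Over the named genes 1905 values kept direction and side, 55 lost a call, 4 gained one and 12 reversed direction. Of list medians, 53 moved by more than the spread between mice.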
